A study of Mus musculus with 4 samples.

Results

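General capillary endothelial cells line alveolar capillaries of the lung. They were taken here as barcodes with at least 1 UMI (unique molecular identifier, a count of 1 captured RNA molecule) of Cdh5 and at least 2 of Plvap, with more Plvap than Car4 and Ednrb together. Barcodes also had to hold fewer than 3 UMIs of Vwf, at most 1 of Pdgfra and Npnt together and at most 3 of C1qa, C1qb and C1qc together, at 300 or more detected genes and no more than 10% mitochondrial UMIs. The rule found 772 cells among 15793 filtered barcodes of 16350 in all: 198 in LAIR1KO tumor-bearing lung, 179 in WT tumor-bearing lung, 265 in LAIR1KO normal lung and 130 in WT normal lung. Since the rule reads the measured UMIs of these genes, their levels describe the class and are no finding about it.

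The study compared mouse lungs of 2 genotypes, LAIR1KO and WT, either bearing B16/F10, a mouse melanoma line, or free of tumor. LAIR1 is an inhibitory receptor for collagen on leukocytes. Each of the 4 groups was a single library that pooled 3 hashtagged animals (12 in all), so library and group cannot be told apart. How the gene was deleted, the age of the animals and how the tumors were given are not given in the sources used here. All animals shared a pathogen-free facility with standard chow, and the labels list no treatment.

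The alveolar wall of the mouse holds a pair of capillary endothelial types. General capillary cells carry Plvap, the protein of the diaphragms that close caveolae and fenestrae, bind lipoprotein lipase through GPIHBP1, and answer to stem cell factor and apelin through KIT and the apelin receptor; they also act as progenitors when capillaries are repaired. Aerocytes, marked by Car4 and Ednrb, are large thin cells that face the alveolar air, depend on VEGFA, and make apelin and stem cell factor (Kitl). Endothelium of larger vessels stores von Willebrand factor, the product of Vwf.

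Libraries held 25216301 to 28034709 gene UMIs and 3100 to 4586 filtered cells, and any pair of libraries shared 3 to 7 barcodes. Lair1 was read in macrophage-like cells (at least 10 C1q UMIs) as the check of the deletion: 1 UMI in 907 LAIR1KO tumor cells against 1053 in 875 WT tumor cells, and 2 in 563 LAIR1KO normal cells against 480 in 427 WT normal cells. General capillary cells themselves held 0 Lair1 UMIs in LAIR1KO tumor and 2 in each of the other 3 groups, so its level could not be told from 0 (3 UMIs would be 3.70 CPM, UMIs per 1000000, in LAIR1KO tumor and 3.13 CPM in WT normal). Sex-linked transcripts split the groups. Xist, which coats and silences the inactive X in females, was at 803 to 1876 CPM in the LAIR1KO tumor, WT tumor and LAIR1KO normal animals and at 0 in every WT normal animal, while Ddx3y, a helicase of the Y chromosome, was at 103 to 227 CPM in WT normal and 0 elsewhere, so WT normal animals read as male and the 9 others as female. Both comparisons with WT normal lung therefore carry sex as well, and it cannot be told apart from them.

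Of the 4 marker genes, Cdh5 and Plvap are genes of the rule and are present by it. Cldn5 and Sema3c, and beside them Pecam1, were read in its cells, though not all of them set the class apart. Cldn5, a tight junction protein, had a UMI in 96.8% of the cells, Pecam1 in 95.7% and Sema3c, a secreted guidance cue, in 92.0% (median 4519 UMIs per cell). In macrophage-like cells the shares were 4.11%, 3.79% and 3.97% (median 5513 UMIs). In aerocytes, taken by a rule given below, they were 98.9%, 95.8% and 84.2% (median 6835 UMIs). With each cell thinned to 2000 UMIs, which left out 100 of the 772 cells, the shares were 89.7% for Cldn5 and 85.6% for Pecam1, against 1.58% and 1.14% in macrophage-like cells. Ptprc, the pan-leukocyte gene, averaged 39.6 CPM over the animals and Epcam, an epithelial gene, 12.6 CPM. At the rule's edges, 101 cells with 2 Plvap UMIs held 19.7 Sema3c UMIs per 10000, and 94 cells outside it with 1 Plvap UMI held 17.9. Cldn5 was at 12.8 and 11.4 per 10000 in the same cells. Cells with 2 Vwf UMIs (93 cells) held 18.0 Sema3c UMIs per 10000, and 45 cells just outside with 3 Vwf UMIs held 15.5. With Plvap 1 UMI above Car4 and Ednrb together, 51 cells held 22.8, and 27 cells outside with equal counts held 21.1. Cldn5 went the other way at both of these edges. It was at 14.6 inside and 18.0 outside for Vwf, and at 16.7 inside and 20.9 outside for Plvap against Car4 and Ednrb.

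The means of all 4 markers were lowest in LAIR1KO normal lung, though neither Sema3c nor Cldn5, the markers outside the rule, passed in any comparison of groups. Plvap (GRCm38 chr8:71497765-71511752, minus strand) was at 1661, 1532 and 1410 CPM in LAIR1KO tumor, 1306, 1604 and 1370 in WT tumor, 1210, 931 and 939 in LAIR1KO normal, and 1332, 1592 and 1255 CPM in WT normal animals. All 3 LAIR1KO normal animals lay below the 9 others. Cdh5 (chr8:104101625-104144511, plus strand), the adherens junction cadherin, averaged 2474 ± 102 CPM in LAIR1KO tumor, 2639 ± 373 in WT tumor, 1736 ± 511 in LAIR1KO normal and 2206 ± 255 in WT normal (SD, n = 3 each). Sema3c (chr5:17574281-17730268, plus strand) averaged 1720 ± 612, 2233 ± 483, 1320 ± 559 and 1464 ± 204 CPM in the same order, with groups that overlapped. Cldn5 (chr16:18776847-18778262, plus strand) averaged 1665 ± 94.0 CPM in LAIR1KO tumor, 1560 ± 398 in WT tumor, 1093 ± 283 in LAIR1KO normal and 1677 ± 90.4 in WT normal. Plvap and Cdh5 are genes of the rule, so their levels are also set by it, and their order over the groups is no finding.

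**Figure D1:**
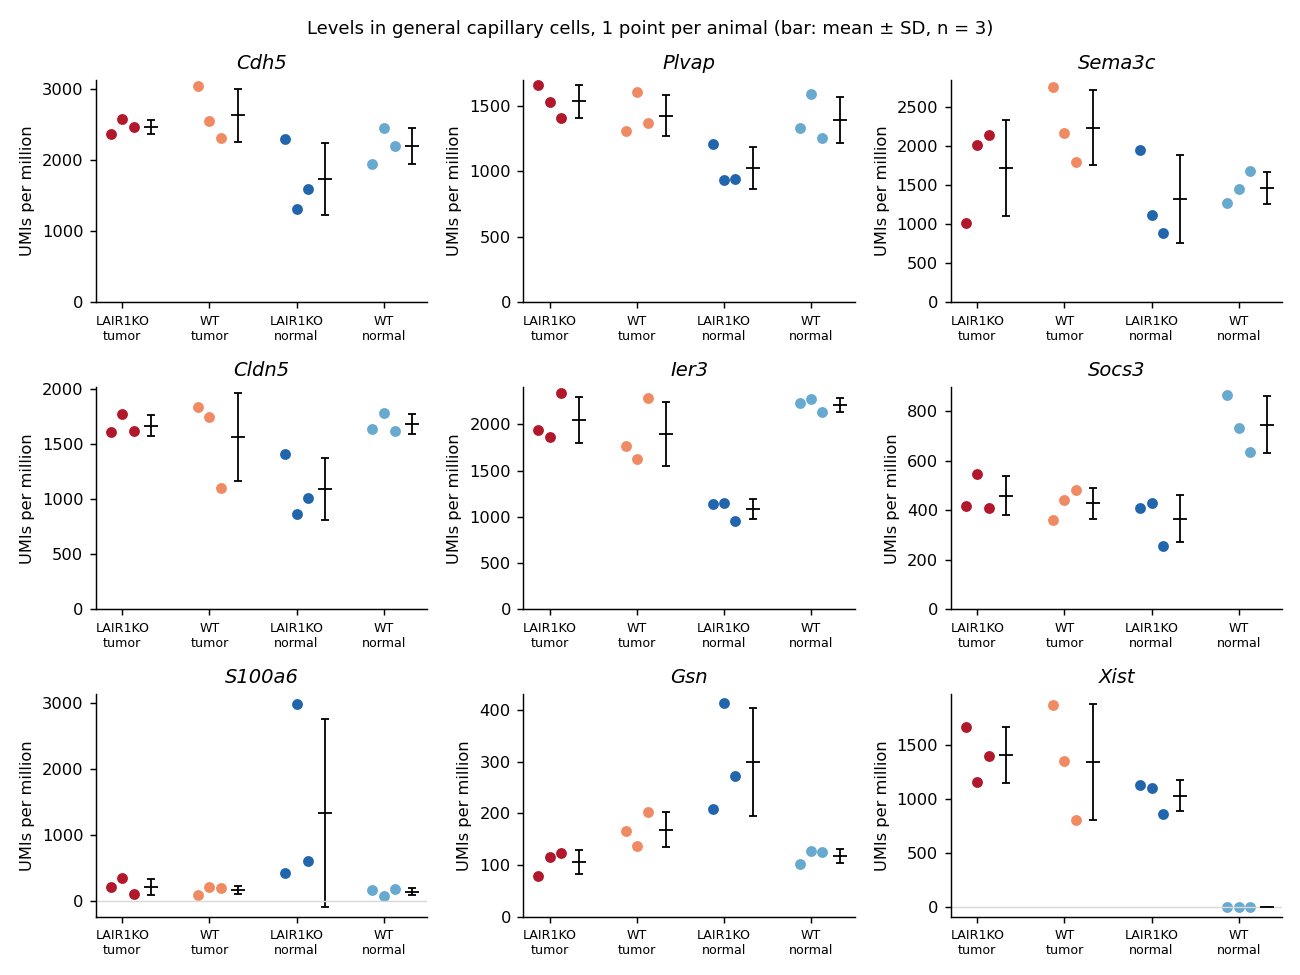
Levels in CPM of the 4 marker genes, of 4 genes chosen after their values were seen and of Xist, in general capillary cells, with 1 point per animal in each group and a bar for the mean ± SD (n = 3). Ier3 sits at 956 to 1155 in LAIR1KO normal and at 1626 to 2334 in the 9 other animals; Xist is at 0 in WT normal.

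Set beside aerocytes, taken by the mirrored rule (449 cells), general capillary cells differed in both directions. In the 9 animals with at least 10 cells of both classes, 71 of 2039 genes of at least 100 CPM in either class were 2-fold or more higher in every animal and 91 were 2-fold or more lower; the rule uses this contrast, so these counts carry no test. Of 21 general capillary genes listed for this work, 12 were higher in all 9 animals, 2 were lower in all 9 and 7 were mixed; of all 2039 genes, 158 were higher and 187 lower in every animal. Of 15 aerocyte genes, 14 were lower in every animal and 1, Nckap5, was higher in every animal.

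Kit, the receptor for stem cell factor, averaged 690 ± 191 CPM in general capillary cells and 225 ± 115 in aerocytes (SD, n = 9 animals). Its ligand Kitl went the other way, at 454 ± 101 CPM against 1463 ± 239. The apelin receptor Aplnr averaged 199 ± 62.7 CPM in general capillary cells and 64.4 ± 17.8 in aerocytes, and its ligand Apln 31.8 ± 31.2 against 429 ± 112. Both ligand and receptor pairs were thus split between the classes in each of the 9 animals. Tek, the angiopoietin receptor, averaged 633 ± 133 CPM against 231 ± 65.6 in aerocytes, and Ptprb, a phosphatase that acts on it, 2196 ± 263 against 743 ± 247. Kdr, the main VEGFA receptor, was lower, at 470 ± 101 CPM against 1946 ± 294 in aerocytes.

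Gpihbp1, which holds lipoprotein lipase on the capillary wall, averaged 672 ± 112 CPM in general capillary cells and 279 ± 50.1 in aerocytes, whereas the lipase gene Lpl itself was higher in 8 of 9 animals (269 ± 76.9 against 191 ± 253). Cd36, a fatty acid transporter, averaged 3114 ± 674 CPM in general capillary cells and 2797 ± 360 in aerocytes, higher in 8 of 9 animals. Cxcl12, a chemokine that holds CXCR4-bearing leukocytes, averaged 467 ± 153 CPM against 150 ± 80.6, and Glp1r, the receptor for glucagon-like peptide 1, 497 ± 94.2 against 194 ± 59.8. Of genes picked by size of ratio alone, outside the rule and the same way in every animal, those with higher levels included Itga6 (677 ± 117 against 163 ± 109 CPM), an integrin that binds laminin, Sema3g (556 ± 185 against 150 ± 64.4), a guidance cue, and Hey1 (145 ± 50.2 against 39.7 ± 22.7), a target of Notch. Those with lower levels included Fibin (18.3 ± 18.4 against 600.5 ± 143) and Chst1 (12.8 ± 10.5 against 257 ± 27.6), a sulfotransferase.

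Some genes did not follow their list. Cldn5 was lower in general capillary cells in all 9 animals, at 1586 ± 300 CPM against 2610 ± 291 in aerocytes, and so was Adgrl2, an adhesion receptor, at 270 ± 49.0 against 529 ± 116. Tmcc2 was lower in 8 of 9 animals.

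**Figure D2:**
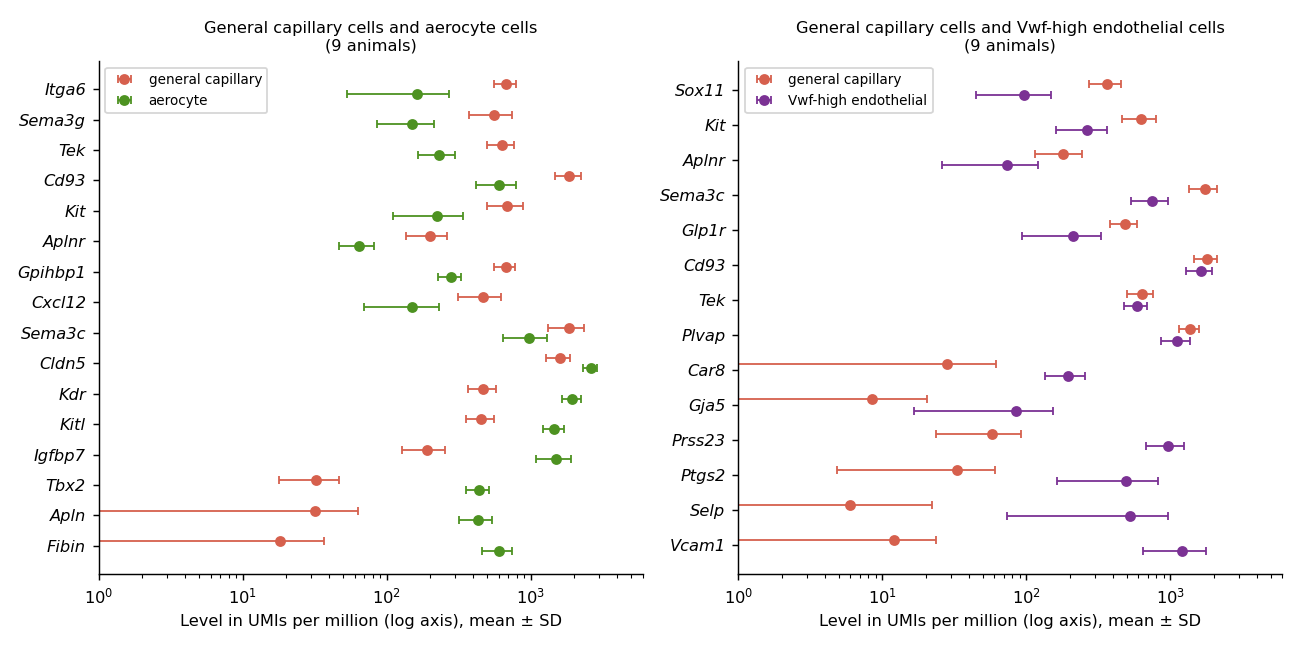
Mean level (CPM, log axis) with SD over 9 animals in general capillary cells and, at left, aerocytes or, at right, Vwf-high endothelial cells; lower whiskers that reach the axis edge are cut by the log scale. Kit and Aplnr lie higher in general capillary cells than in both other classes, while Cldn5 (1586 against 2610) lies higher in aerocytes.

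Beside Vwf-high endothelial cells (349 cells; 9 animals with at least 10 cells of both classes) fewer genes met the same limits: 20 of 1962 genes of at least 100 CPM in either class were 2-fold or more higher in every animal and 42 lower, and at any fold 74 were higher and 75 lower in every animal. Sox11, a transcription factor of progenitors, averaged 364 ± 92.4 CPM in general capillary cells and 96.5 ± 51.5 in Vwf-high cells. Kit (628 ± 164 against 263 ± 102 CPM), Aplnr (180 ± 64.7 against 72.9 ± 47.0), Sema3c (1729 ± 379 against 748 ± 216) and Glp1r (486 ± 103 against 211 ± 117) were also higher in all 9 animals. Genes that general capillary cells shared with Vwf-high cells included Cd93, a lectin-like receptor of endothelium (1788 ± 328 against 1619 ± 333 CPM), and Tek (631 ± 131 against 583 ± 107), each higher in 5 of 9 animals.

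Several genes of large ratio were low or at 0 in general capillary cells. Vcam1, which holds leukocytes through an integrin, averaged 12.0 ± 11.7 CPM against 1209 ± 568 in Vwf-high cells, and Selp, the selectin of the same storage granules as von Willebrand factor, 5.97 ± 16.2 against 522 ± 448. Slc6a2, the noradrenaline transporter of lung veins, had 0 UMIs in general capillary cells and 936 in Vwf-high cells, at least 445-fold lower when 3 UMIs over all the animals stand for the 0. Cytl1, a secreted protein, was likewise at 0 and 303 UMIs, at least 153-fold lower. Of 18 artery and vein genes listed, 0 were higher in general capillary cells in every animal and 7 were lower in every animal (75 of the 1962 genes were), Car8, a carbonic anhydrase relative, among them (28.2 ± 33.3 against 195 ± 60.5 CPM). Prss23, a protease, was also lower in all 9 animals (57.9 ± 34.2 against 966 ± 284 CPM).

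The share of general capillary cells varied widely between animals in 3 of the 4 groups and little in WT normal. Of cells with a single hashtag they made up 3.33%, 12.4% and 2.76% in LAIR1KO tumor replicates 1, 2 and 3, 4.23%, 6.54% and 3.02% in WT tumor, 16.8%, 1.29% and 2.39% in LAIR1KO normal, and 3.72%, 3.50% and 4.36% in WT normal. Group means were 6.15% ± 5.38, 4.60% ± 1.79, 6.84% ± 8.68 and 3.86% ± 0.446 (SD, n = 3 each), and the groups overlapped in all 4 comparisons. Two-sided exact permutation tests over animals gave p = 0.9 for LAIR1KO against WT in tumor-bearing lung, p = 1 in normal lung, p = 1 for tumor in LAIR1KO and p = 0.7 for tumor in WT, where 3 against 3 cannot go below 0.1. LAIR1KO normal replicate 1 held 110 of the 134 single-hashtag general capillary cells of its library, or 82.1%, but 32.5% of the library's single-hashtag cells of all kinds, and without it the difference from WT normal turned to -2.02 percentage points. The other differences turned too: to -1.55 for LAIR1KO against WT in tumor-bearing lung without LAIR1KO tumor replicate 2, to -0.235 for tumor in WT without WT tumor replicate 2, and for tumor in LAIR1KO to 0.713, 0.999 and 4.31 without LAIR1KO tumor replicate 1, LAIR1KO tumor replicate 3 and LAIR1KO normal replicate 1. The count reads UMIs, and depth moved with the groups: the median general capillary cell had 3118 UMIs in LAIR1KO tumor and 3259 in WT tumor, against 5868 in LAIR1KO normal and 5747 in WT normal.

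**Figure D3:**
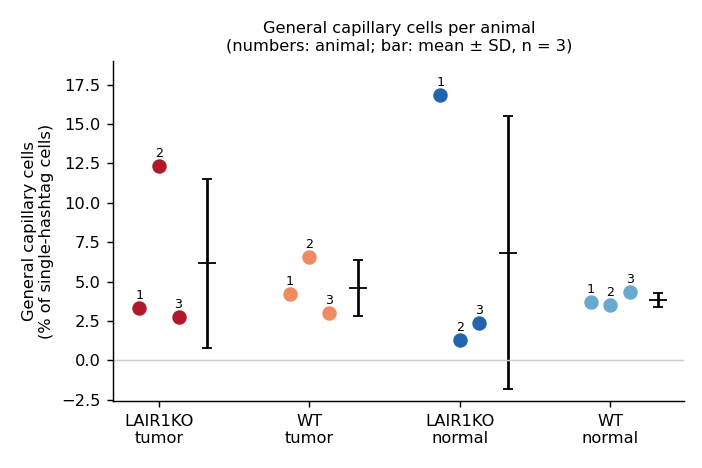
Share of single-hashtag cells that were general capillary cells, 1 point per animal with its replicate number, and a bar for mean ± SD (n = 3 animals). LAIR1KO normal replicate 1 stands at 16.8% and LAIR1KO tumor replicate 2 at 12.4%, with the other 10 animals between 1.29% and 6.54%.

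More of these barcodes than of all filtered barcodes were called hashtag doublets, as were more aerocyte and Vwf-high barcodes. Hashtag doublets made up 21.7% of general capillary barcodes in LAIR1KO tumor (Wilson 95% interval 16.5 to 28.0), 34.6% in WT tumor (28.1 to 41.9), 46.4% in LAIR1KO normal (40.5 to 52.4) and 44.6% in WT normal (36.3 to 53.2), against 14.7%, 17.9%, 24.3% and 19.2% of all filtered cells. In the same order the call fell on 23.9%, 30.1%, 44.2% and 45.1% of aerocytes and 28.8%, 43.2%, 38.8% and 37.3% of Vwf-high cells. Median hashtag UMIs were 382, 477, 903 and 1294.5 per general capillary cell, against 140, 135, 324.5 and 209.5 per filtered cell; whether high antibody binding made these calls was not tested. Values per animal use the 431 cells with a single hashtag, 10 to 110 per animal and 58009 to 602545 UMIs per animal.

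Marker transcripts of alveolar type 2 cells and neutrophils led the variation between these cells. Mitochondrial, ribosomal, hemoglobin, immunoglobulin, T cell receptor, X and Y genes and gene models were passed over when genes were ranked. Among the 15 genes of largest variance to mean ratio over 672 of the 772 cells, with hashtag doublets kept and each cell thinned to 2000 UMIs, were the surfactant genes Sftpc, Sftpa1 and Sftpb, the neutrophil alarmins S100a8 and S100a9, the chemokines Ccl3, Ccl4 and Cxcl2, the lysozymes Lyz1 and Lyz2, and Fabp4, whose UMIs lay in 1.64% of cells. Sftpc was at 328, 181 and 200.3 CPM in LAIR1KO tumor, 345, 366 and 19290 in WT tumor, 4642, 155 and 50216 in LAIR1KO normal, and 17951, 493 and 19406 in WT normal. Outside LAIR1KO tumor, few cells held most of the Sftpc UMIs: of 1892 in WT tumor, 1323 were in 1 cell, and of 8691 in LAIR1KO normal, 4667 were in 3 cells. In LAIR1KO tumor the 3 highest cells held 12 of 94. A low level was common, with a Sftpc UMI in 57 of 120 LAIR1KO tumor cells and 77 of 108 WT tumor cells. In normal lung it was in 79 of 134 LAIR1KO and 58 of 69 WT cells. Summed over 4 alveolar type 2 markers the animals ranged from 2.14 to 3.84 UMIs per 10000 in LAIR1KO tumor, 4.69 to 239 in WT tumor, 1.90 to 595 in LAIR1KO normal and 6.19 to 233 in WT normal. The 5 neutrophil markers ranged from 1.16 to 44.2, 0.856 to 23.1, 6.83 to 48.8 and 0.924 to 16.5 in the same order. Hemoglobin reached 21.6 UMIs per 10000 in LAIR1KO normal, where 1 cell held 1226 of 1307 UMIs. T and NK cell markers summed to 1 UMI over all 12 animals, and 4 of the 5 genes were at 0 in LAIR1KO tumor and all 5 in the other groups. The part of other cells' transcripts in group differences below was not tested beyond leaving out cells with fibroblast, macrophage or neutrophil transcripts.

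**Figure D4:**
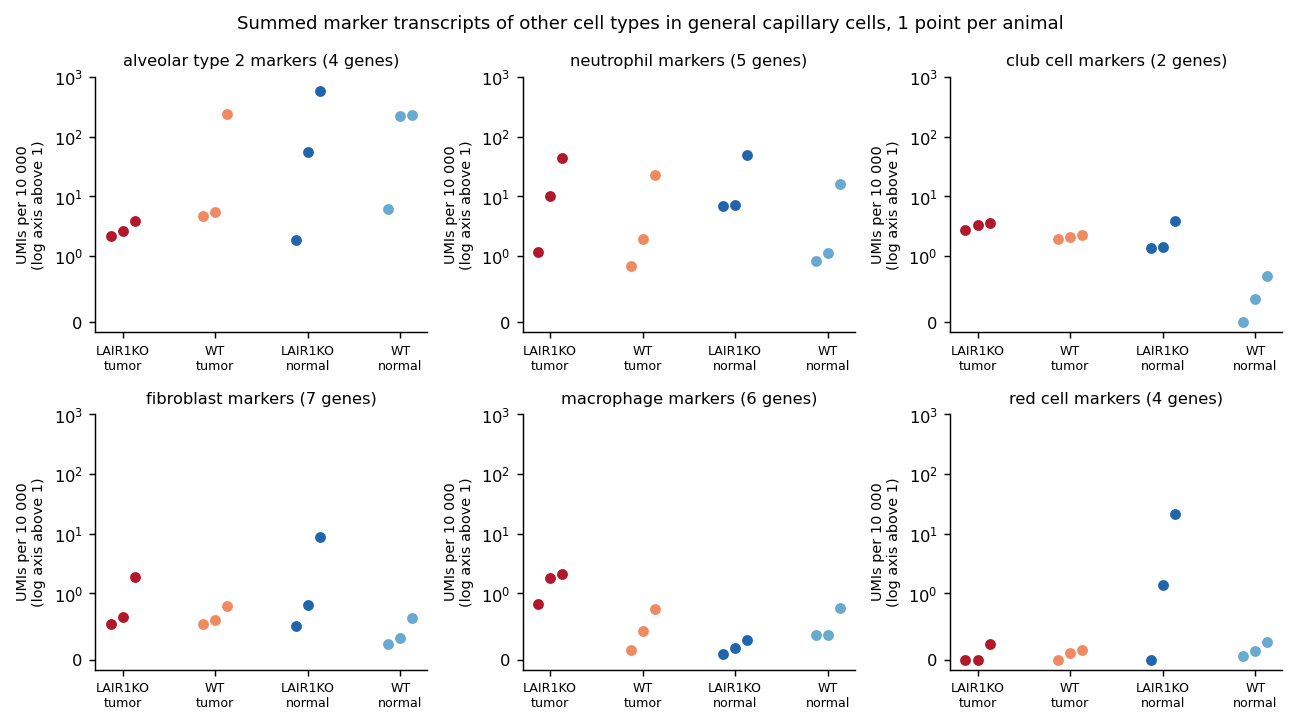
Summed UMIs per 10000 of marker genes of other cell types in general capillary cells, with 1 point per animal sorted from low to high within each group (linear below 1, log axis above). Alveolar type 2 transcripts exceed 200 per 10000 in 1 WT tumor, 1 LAIR1KO normal and 2 WT normal animals and stay under 4 in all LAIR1KO tumor animals.

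In tumor-bearing lung, where all animals read as female, no gene of general capillary cells passed the test between LAIR1KO and WT. Of 3105 genes tested, 0 (0%) passed an adjusted p of 0.05 in edgeR's quasi-likelihood test, 119 had an unadjusted p under 0.05, and DESeq2 called 0. No left-out animal changed that count. The median standard error (SE) was 0.34 on the log2 scale, which bounds what 3 animals a group can show. Log2 fold changes are given ± SE. Cavin2, a coat protein of caveolae in the list of lipid uptake and caveolae, was at 723, 980 and 1032 CPM in LAIR1KO tumor and 2026, 1413 and 1081 in WT tumor, groups that did not overlap (log2 -0.71 ± 0.23, adjusted p = 1); it was chosen after its values were seen. Across the lists 0 members passed. The lists of capillary states, without the marker lists of other cell types, had medians from -0.49 to 0.30. The lowest was that of 4 cell cycle genes and the highest that of 8 glucocorticoid targets, beside -0.0039 for all genes tested. The 4 alveolar type 2 markers had -5.31, and 1 cell held 1575 of their 2354 UMIs in WT tumor. Without LAIR1KO tumor replicate 1 the glucocorticoid median turned to -0.055, and it was 0.171 without WT tumor replicate 2 and 0.597 without WT tumor replicate 3. The cell cycle median was -0.868 without WT tumor replicate 3 and -0.327 without WT tumor replicate 1. In WT tumor all 20 cell cycle genes together reached 38.7 UMIs per 10000 in 1 animal, and 1 cell held 188 of the group's 681 UMIs. The cell cycle median was -0.00325 once cells with over 1 UMI of fibroblast, macrophage or neutrophil markers were left out.

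In LAIR1KO lung with melanoma against without, also between animals read as female, no gene passed the edgeR test (0 of 3105, 0%; 229 had an unadjusted p under 0.05), while DESeq2 called 10. Leaving out LAIR1KO normal replicate 1 gave 5 calls in edgeR, all fallen, among them Gsn and S100a6, and leaving out LAIR1KO tumor replicate 2 gave Chil3 and Prdx6. The DESeq2 calls were 1 risen gene, Ier3, and 9 fallen, namely Emp2, Hopx, S100a6, Sftpc, Sftpa1 and the mitochondrial genes mt-Nd2, mt-Cytb, mt-Atp6 and mt-Co1; the genes among them given next, and Gsn, were chosen after their values were seen. Emp2, a membrane protein of the aerocyte list, was at 294, 251 and 300.5 CPM in LAIR1KO tumor and 579, 655 and 495 in LAIR1KO normal (log2 -1.14 ± 0.27, edgeR adjusted p = 0.361, DESeq2 adjusted p = 0.0153). The groups did not overlap, and in WT lung the order was the same, at 135, 273 and 396 CPM in tumor-bearing and 454, 594 and 478 in normal animals (log2 -0.92 ± 0.27, edgeR adjusted p = 0.540). Ier3, an immediate early gene with a role in survival under stress, was at 1943, 1866 and 2334 CPM in LAIR1KO tumor and 1135, 1155 and 956 in LAIR1KO normal (log2 0.81 ± 0.18, edgeR adjusted p = 0.361, DESeq2 adjusted p = 0.0153).

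S100a6 is a calcium-binding protein high in fibroblasts and other cells. It was at 215, 348 and 108 CPM in LAIR1KO tumor and 435, 2982 and 614 in LAIR1KO normal (log2 -2.56 ± 0.60, edgeR adjusted p = 0.361, DESeq2 adjusted p = 0.0229). A UMI of it was in 32 of 120 LAIR1KO tumor cells and 75 of 134 LAIR1KO normal cells. The 3 highest cells held 56 of 108 UMIs in LAIR1KO tumor and 160 of 507 in LAIR1KO normal. The highest S100a6 level was that of LAIR1KO normal replicate 2, with 10 cells. This animal also held the group's highest level of Mgp, a matrix protein of the artery and vein list, at 1845 CPM. Whether transcripts of other cells account for these levels was not tested. Gsn, which severs actin filaments, was at 79.1, 116 and 123 CPM in LAIR1KO tumor and 209, 414 and 273 in LAIR1KO normal (log2 -1.47 ± 0.30, edgeR adjusted p = 0.361). The mitochondrial gene mt-Atp6 was at 4644, 5641 and 5208 CPM in LAIR1KO tumor and 6877, 7482 and 7884 in LAIR1KO normal, and at 5327, 4769 and 6262 in WT tumor against 8029, 9840 and 8182 in WT normal (edgeR adjusted p = 0.361 and 0.277). Tumor-bearing animals lay below normal ones in both genotypes without overlap, and the tumor-bearing libraries also had fewer UMIs per general capillary cell; the part of depth was not tested.

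LAIR1KO and WT normal lung differed by 1 called gene of 3105 (0.0322%), Xist, with 207 genes at an unadjusted p under 0.05 and 5 DESeq2 calls. Xist had 843 UMIs in LAIR1KO normal and 0 in WT normal, at least 147-fold higher when 3 UMIs stand for the 0 over the group, with Ddx3y at 0 and 69 UMIs. With the genes of X and Y left out, 0 were called. Counts went to 2 without LAIR1KO normal replicate 1 (S100a6 added) or LAIR1KO tumor replicate 1 (Ddx3y), to 3 without WT tumor replicate 3 (Ier3 and Ddx3y) and to 4 without LAIR1KO normal replicate 3 (Ddx3y, S100a6 and Crip1). Ier3 had the lowest adjusted p of the genes not called. It was at 1135, 1155 and 956 CPM in LAIR1KO normal and 2234, 2274 and 2130 in WT normal (log2 -0.98 ± 0.18, edgeR adjusted p = 0.0560, DESeq2 adjusted p = 2.37e-04). Socs3, a feedback inhibitor of cytokine signals through STAT3, was at 410, 431 and 256 CPM in LAIR1KO normal and 866, 733 and 636 in WT normal (log2 -0.99 ± 0.22, edgeR adjusted p = 0.195, DESeq2 adjusted p = 0.0280). For both genes every LAIR1KO normal animal lay below every WT normal animal; they were chosen after their values were seen, and sex and library go with the genotype here. Rpl38, a ribosomal protein gene, and S100a6 were the remaining DESeq2 calls, both higher in LAIR1KO.

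Of 21 general capillary genes, 0 passed between LAIR1KO and WT normal lung, 1 was above zero and the median was -0.19, beside 49.4% of all genes above zero and a median of -0.0044. The median was 0.0089 once cells with over 1 UMI of fibroblast, macrophage or neutrophil markers were left out, and it was -0.365 without LAIR1KO normal replicate 1, -0.292 without WT normal replicate 1 and -0.122 without WT normal replicate 2. Adgrf5, an adhesion receptor of lung capillaries, was at 2305, 2051 and 1928 CPM in LAIR1KO normal and 2073, 2501 and 2342 in WT normal, groups that overlapped. In LAIR1KO lung with tumor against without, 17 of the 21 were above zero, beside 50.7% of all genes tested. The median was 0.31 (0.16 with those cells left out, 0.54 without LAIR1KO normal replicate 1), beside 0.0047 for all genes. LAIR1KO normal is shared by both comparisons.

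Melanoma in WT lung gave 1 call of 3105 (0.0322%), again Xist, with 447 UMIs in WT tumor and 0 in WT normal, at least 192-fold higher by the same floor. In all 187 genes had an unadjusted p under 0.05, and DESeq2 called 5: Xist, Ddx3y, Ddx3x, Scgb1a1 and mt-Atp6, of which the first 3 lie on the sex chromosomes. Without LAIR1KO normal replicate 3 the edgeR count was 4, with Scgb1a1, Ddx3y and Hmgcs1 added. Scgb1a1, the main secretion of club cells, was at 225, 207 and 193 CPM in WT tumor and 35.8, 0 and 70.6 in WT normal (log2 2.21 ± 0.54, edgeR adjusted p = 0.376); in WT tumor its 71 UMIs were spread over 47 of 108 cells with at most 3 in a cell. LAIR1KO animals held 138 to 367 CPM with or without tumor. The test of whether tumor acted differently by genotype called 1 of 3105 genes (0.0322%), Xist, with 165 at an unadjusted p under 0.05 and 1 DESeq2 call, the same gene.

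Lists tied to the state of capillaries held no called member in any of the 4 comparisons. Their leading genes by mean level are given here as ranges over the 12 animals. Klf2, a transcription factor kept up by laminar flow, ranged from 1015 to 2792 CPM and Cav1, the coat protein of caveolae, from 887 to 1841. Thbd, which turns thrombin to an anticoagulant role, ranged from 973 to 1790 CPM, and Icam1, which holds leukocytes, from 407 to 986. Bmpr2, the BMP receptor mutated in human heritable pulmonary hypertension, ranged from 1271 to 1996 CPM and its partner Eng from 672 to 1244. Notch1 ranged from 196 to 465 CPM and Hes1, a Notch target, from 417 to 1281. Vegfa itself was read at 503 to 911 CPM and Col4a1, a basement membrane collagen, at 435 to 917. Among antigen presentation genes B2m ranged from 2055 to 3853 CPM and H2-K1 from 1924 to 3941. Ly6a, an interferon-stimulated gene also constitutive in lung endothelium, ranged from 1057 to 1709 CPM, whereas Iigp1, an interferon-induced GTPase, spread from 120 to 1808 within tumor-bearing animals alone.

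Genes of immediate early and heat shock responses were uneven between animals. Hspa1b, an inducible chaperone, was at 5785, 8236 and 5131 CPM in LAIR1KO tumor, 3481, 6685 and 7033 in WT tumor, 7015, 6516 and 3780 in LAIR1KO normal and 11494, 6291 and 4075 in WT normal. The groups overlapped. Of 19 such genes 0 passed in any comparison. For LAIR1KO against WT normal 1 was above zero (median -0.34), beside 49.4% of all genes tested. For tumor against normal in WT 1 was above zero (median -0.38), beside 51.4%. Both comparisons share the WT normal animals. Without single animals the first median ran from -0.552 (WT normal replicate 3 left out) to -0.124 (WT normal replicate 1), and was -0.546 with replicate 2 of LAIR1KO normal left out and -0.220 with its replicate 3 left out. The WT tumor median ran from -0.616 (WT tumor replicate 3 left out) to -0.154 (WT normal replicate 1), with -0.229 without WT tumor replicate 1. Among acute-phase and STAT3 targets Cebpd, a transcription factor, was at 687, 586 and 700 CPM in LAIR1KO normal and 1099, 1251 and 853 in WT normal (log2 -0.63 ± 0.23, edgeR adjusted p = 0.635). Mt1, a metallothionein among the glucocorticoid targets, ranged from 76.4 to 2773 CPM, and the list's median for tumor in LAIR1KO was -0.67, and 0.19 once cells with fibroblast, macrophage or neutrophil transcripts were left out. It was 0.239 without LAIR1KO normal replicate 3, -1.12 without LAIR1KO normal replicate 1 and -0.242 without LAIR1KO tumor replicate 2.

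**Figure D5:**
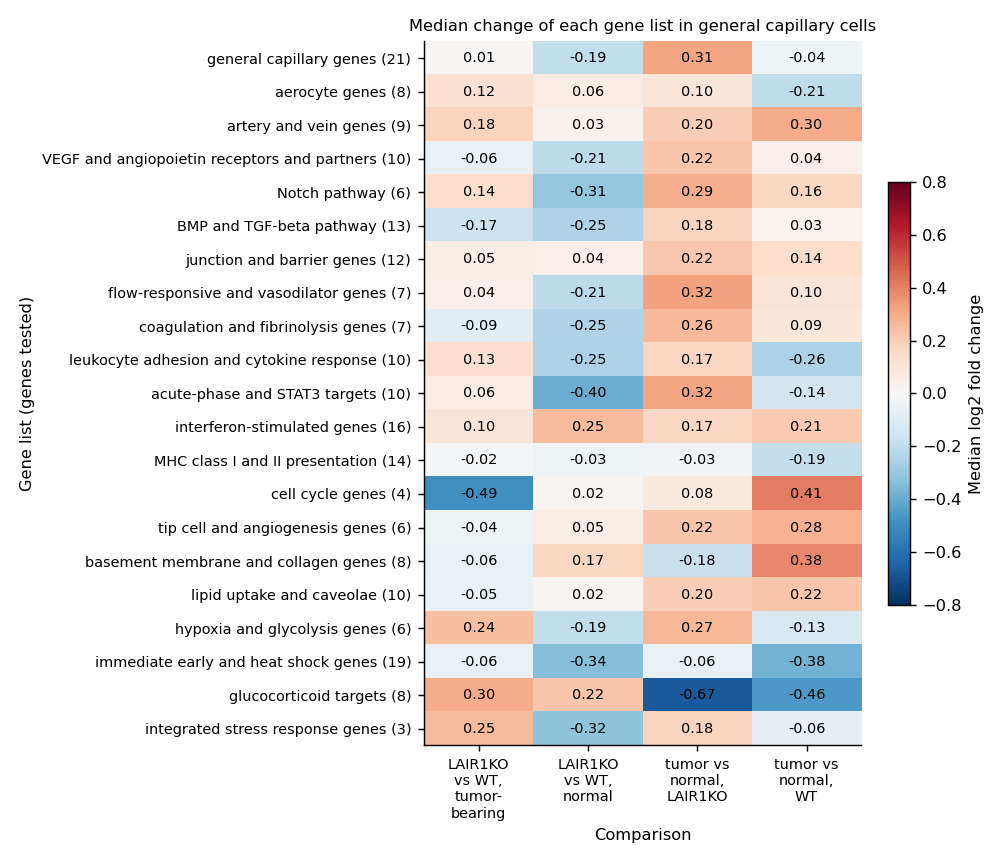
Median log2 fold change of each gene list over its tested genes in general capillary cells, by comparison, with the number of genes tested in brackets. No list held a called gene; medians of lists of 10 or more genes lie between -0.40 and 0.32.

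Whether tumor or genotype acted differently on general capillary cells than on aerocytes was tested in the 9 animals with at least 10 cells of both classes, with the animal as a block. For tumor, averaged over both genotypes, 0 of 4302 genes (0%) passed in edgeR, 163 had an unadjusted p under 0.05, and DESeq2 called 0. Mt1 and Mt2 passed without LAIR1KO tumor replicate 2, and Mt2 without WT normal replicate 1. For LAIR1KO against WT in tumor-bearing lung 1 of 4302 genes (0.0232%) passed, Fabp4, a fatty acid carrier (adjusted p = 0.0029), and DESeq2 called 0. Few UMIs lay behind it. In general capillary cells there were 0 in LAIR1KO tumor replicates 2 and 3, against 0 in WT tumor replicate 1 and 62, all in 1 cell, in WT tumor replicate 2. In aerocytes LAIR1KO tumor replicates 2 and 3 had 2 and 56, against 0 in WT tumor replicates 1 and 2; LAIR1KO tumor replicate 1, with 6 aerocytes, was not in the fit and had 8 in general capillary cells. The call was lost without LAIR1KO tumor replicate 3 or WT tumor replicate 2. It was also lost with cells assigned by a top hashtag of at least 70% and without the animal as a block. Leaving out cells with over 1 UMI of fibroblast, macrophage or neutrophil markers lost it too.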

How the data were processed

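Lung cells of 12 mice were measured by droplet RNA sequencing with the 10x 3′ kit V3. The deposited values are whole-number UMI counts per gene and per hashtag antibody, made with Cell Ranger 4.0.0 on mm10, per the file headers and the submitters' processing notes; STAR, R and Seurat are also listed without a role. Barcodes were filtered at 300 genes and 10% mitochondrial UMIs. Hashtags were called with Seurat 5.3.0 (HTODemux, quantile 0.99), and hashtag numbers do not pair animals across libraries. Doublets between animals were thereby removed from the tests; those within an animal were kept, and Scrublet (scanpy 1.11.5) calls were removed in an alternative. UMIs were summed per animal over general capillary cells and tested with edgeR 4.0.16 (TMM, filterByExpr, quasi-likelihood test, Benjamini-Hochberg over all genes tested), with all 4 groups in 1 fit; DESeq2 1.42.0 was the alternative. CPM are UMIs per 1000000 of the animal's summed UMIs. Shares were compared by exact permutation over animals. Intervals and floors of 3 counts cover counting error only. The fits were tested on simulated data with 200 changed genes. The 4 group comparisons recovered 23% to 34% of genes changed 2-fold and 82% to 93% of those changed 4-fold. The interaction recovered 9% and 60%. The difference from aerocytes recovered 13% and 75% for tumor, and 0% and 16% for genotype. Most 2-fold changes would thus be missed.

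The members, the 32 gene lists (360 genes with a count) and the tests were chosen with earlier results of these data known. Genes were to be named where they passed the test with no overlap of groups, apart from X and Y genes; beside those, the markers, the rule's genes, Lair1, the leading 2 genes by mean level of each list without a call, the 10 genes of largest ratio each way between classes and the 15 most variable genes. Other genes of the lists set beside other classes, and those said to be so, were chosen after their values were seen. Gene positions came from the GENCODE annotation of GRCm38, which matched 32235 of 32285 genes by identifier. Samples from other series were in 0 columns. A gene among those of largest ratio between classes is not reported here.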

Additional observations from a re-analysis of the deposited data

Results flagged for a closer look

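In general capillary cells the genotype by tumor term for Xist passed the test of the difference itself (log2 -10.41, edgeR adjusted p = 3.95e-06). The 3 WT normal animals had 0 Xist UMIs, so the fitted value depends on the prior count and is no measure of size. They also held Ddx3y, at 69 UMIs against 0 in the 9 other animals, so sex differs in the term and this is not shown to be an effect of tumor.

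The effect of LAIR1 loss in tumor-bearing lung on Fabp4 differed between general capillary cells and aerocytes by the test of the difference (log2 -16.67, edgeR adjusted p = 0.0029), over 9 animals of which 4 bore tumors. With 0 UMIs in general capillary cells of both LAIR1KO tumor animals in the fit and in aerocytes of both WT tumor animals in it, and 62 UMIs in a single WT tumor cell, the fitted value is again no measure of size, and DESeq2 called 0 genes.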

How the results depend on the processing

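Genes called in general capillary cells were 1 for genotype in normal lung, 0 for genotype in tumor-bearing lung, 1 for tumor in WT, 0 for tumor in LAIR1KO and 1 for the interaction. In that order DESeq2 gave 5, 0, 5, 10 and 1; no filter on low counts gave 55, 41, 37, 141 and 32; and leaving out X and Y genes gave 0 in each. Cells assigned by a top hashtag of at least 70% (of at least 10 hashtag UMIs, a minimum added later) gave 2 for genotype in normal lung and 2 for tumor in WT; leaving out cells with over 1 UMI of fibroblast, macrophage or neutrophil markers gave 2 for genotype in normal lung; fitting only the groups compared gave 2 for genotype in normal lung and 3 for tumor in WT. Single animals left out gave 1 to 4, 0 to 0, 1 to 4, 0 to 5 and 1 to 1. For the difference from aerocytes, tumor and genotype had 0 and 1 calls; no filter gave 10 and 8, few UMIs of other types 16 and 4 (6 animals, 2 residual degrees of freedom), top hashtag 3 for genotype, DESeq2 0 and 0, no replicate block 0 and 0, and animals left out 0 to 2 and 0 to 1. RLE size factors, Scrublet doublets removed and Plvap of at least 3 UMIs kept every one of these 7 counts. Fabp4, the main call for genotype, was not among the genes called by top hashtag or with few UMIs of other types.

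Share differences in percentage points were 2.98 for genotype in normal lung, 1.55 for genotype in tumor-bearing lung, 0.736 for tumor in WT and -0.695 for tumor in LAIR1KO. Over cells with Cdh5 the first turned to -12.3 and the last to 22.6 (exact permutation p = 0.3 and p = 0.1, the smallest possible with 3 against 3). Tumor in WT turned to -0.343 by top hashtag, -0.0877 with cells thinned to 2000 UMIs and -0.312 at 3 Plvap UMIs. Single animals left out gave -2.02 to 5.76, -1.55 to 3.25, -0.235 to 1.52 and -3.80 to 4.31. The cause of these turns was not tested.

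No paired analysis was possible because each group is 1 labelled sample and hashtag numbers name different animals in each; only the difference from aerocytes has a block, the animal. Medians of lists were recomputed only with single animals left out and with few UMIs of other types, not under the other alternatives. They stayed within 1 SD of the spread between animals except in 62 of those values. Leaving out 1 animal of a small group can hardly move a group mean by 1 SD, so for animals left out this limit is no test of stability. Within it some medians changed sign with the animal left out and others did not. For tumor in LAIR1KO, glucocorticoid targets ran from -1.12 to 0.239 and general capillary genes from 0.230 to 0.538. Depth limits all of this, with 10 to 110 cells and 58009 to 602545 UMIs an animal.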
